A study of Mus musculus with 26 samples.

Results

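Hif1a and 9 genes of glucose uptake, glycolysis and lactate export were examined in lung group 2 innate lymphoid cells (ILC2s): Slc2a1, Slc2a3, Hk1, Hk2, Pfkp, Pkm, Ldha, Pdk1 and Slc16a3. The 10 genes were taken by symbol from the Ensembl identifiers of the count tables, which hold 55401 identifiers, and all 10 were found. The study sorted ILC2s from lungs of unchallenged female mice aged 8 to 16 weeks, and bulk RNA-seq was available for 3 wild-type C57BL/6J libraries and 3 libraries of CC030GeniUnc (CC030), an inbred Collaborative Cross strain. A further 20 libraries came from ILC2s of 5 CC030 mice that were cultured at 3000 cells per well in human IL-2 at 100 U/mL, with IL-33 and TSLP each at 10 ng/mL. The cells of each mouse were divided between DMSO vehicle and AR420626, an agonist of the short-chain fatty acid receptor FFAR3, at 10 µM, and were harvested at day 2 and at day 6. All cultured cells, vehicle included, received the 3 cytokines, no C57BL/6J cells were cultured, and the naïve and cultured cells were sorted with different gates.

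Glucose enters lymphocytes through carriers of the SLC2A family, is trapped by hexokinases, is committed to glycolysis by phosphofructokinase, and leaves the pathway as pyruvate, made by pyruvate kinase. Lactate dehydrogenase turns pyruvate into lactate, monocarboxylate transporters export it, and pyruvate dehydrogenase kinases hold pyruvate back from the mitochondria. HIF-1α, the protein of Hif1a, is degraded when oxygen is present and otherwise pairs with ARNT to switch on many of these genes, and it is itself controlled largely at the level of protein. Its binding sites share the core letters ACGTG or GCGTG. Most steps are carried by several isoforms with different tissue distributions and different affinities.

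Of the 10 genes, 9 had a promoter sequence in the RefSeq table (GRCm38.p6), which covers 300 bases from 250 before to 50 after a transcript start. Matches to ACGTG or GCGTG were searched on both strands; CACGTG, the core of an E-box, reads as ACGTG on both strands and was counted at both. Each of the 9 genes had a match in at least 1 of its windows. Of their 13 windows, 10 (76.9%) held a match, against 43.8% of all 32851 promoters in the table, and a match is a description of letters only. The windows of Ldha, the most abundant of the genes in C57BL/6J cells, and of Pfkp, whose named row differed with AR420626, are shown with the matches in capitals. The Ldha window lies at chr7:46845554-46845853 on the plus strand and holds 7 matches, and the Pfkp window lies at chr13:6648722-6649021 on the minus strand and holds 4.
Ldha: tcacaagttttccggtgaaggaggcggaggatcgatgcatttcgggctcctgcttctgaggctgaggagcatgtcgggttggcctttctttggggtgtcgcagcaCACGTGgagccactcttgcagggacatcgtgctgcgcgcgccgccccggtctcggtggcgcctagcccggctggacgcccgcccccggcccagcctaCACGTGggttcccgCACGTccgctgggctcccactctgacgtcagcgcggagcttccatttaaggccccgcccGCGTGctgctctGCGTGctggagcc
Pfkp: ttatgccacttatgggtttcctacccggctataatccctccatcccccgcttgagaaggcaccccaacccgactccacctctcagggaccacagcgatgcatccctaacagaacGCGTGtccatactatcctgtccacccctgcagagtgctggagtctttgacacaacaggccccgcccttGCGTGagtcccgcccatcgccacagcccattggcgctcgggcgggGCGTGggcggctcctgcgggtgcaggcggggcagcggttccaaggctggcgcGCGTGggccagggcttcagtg

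Counts in genes ran from 13533363 to 15234305 in the 3 naïve libraries of C57BL/6J. The naïve CC030 libraries held 1324595 to 1524751 and the cultured libraries 227445 to 5320028. The 10 genes together received 10261 to 33322 counts per C57BL/6J library, but 774 to 879 per naïve CC030 library. In C57BL/6J, 13 of 14 ILC2 markers had counts in every library, with Ptgdr2 at 0, 0 and 5 counts. Replicate 3 of C57BL/6J stood apart. It held 172153 counts of Sftpc, the surfactant gene of alveolar type 2 cells, against 1 and 4 in replicates 1 and 2, and 14729 counts of Lyz2, a myeloid and alveolar gene, against 1 and 167. The summed level of 4 epithelial and endothelial markers was 33.1, 23.9 and 21853 TPM (a level scaled by exonic length and by library) in replicates 1, 2 and 3, nearly all of it Sftpc, and that of 4 B cell markers 11.1, 32.6 and 104.4 TPM. Of 6 macrophage and neutrophil markers summing to 0.126, 14.3 and 1466 TPM, Lyz2 gave 1465 TPM in replicate 3, while S100a8 and S100a9 were at 0 in all 3 libraries, Adgre1 was at 0 and Mrc1 had 2 counts in replicate 3. Markers of other cells were also present in replicates 1 and 2. The sums for T cell markers, mainly Cd3g, were 353.1, 361.9 and 198.6 TPM, those for mast cell and basophil markers, mainly Cpa3, 453.3, 704.7 and 274.2 TPM, and those for erythroid markers, mainly Hba-a1, 611.9, 541.8 and 346.6 TPM. The sort had gated out cells stained for CD3, CD4 and the IgE receptor FcεR1. Cd8a, Mcpt8, Ms4a2 and the 4 NK cell markers were at 0 in all 3 libraries.

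Naïve C57BL/6J libraries were examined first, since they answer which isoform of each step lung ILC2s hold. Ldha was by far the most abundant of the 10 genes, Hif1a was present at a moderate level, and Hif1a, Hk2, Pkm and Ldha exceeded each measured paralog in all 3 libraries. Pdk1 lay below Pdk3 in all 3, and Slc16a3 was the least abundant of the 10 by mean TPM. Levels are given in TPM for replicates 1, 2 and 3. With 3 libraries, an exact two-sided sign-flip test of a within-library ratio cannot give a p below 0.25, so none of the 6 ratios tested could pass 0.05.

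Hif1a (ENSMUSG00000021109, chr12:73901375-73947530, plus strand) was at 22.8, 10.8 and 26.0 TPM, from 1142, 579 and 1169 counts. Epas1, which encodes the related subunit HIF-2α, was at 13.2, 6.87 and 14.2 TPM. Hif1a was higher in each of the 3 libraries, with a mean log2 ratio of 0.77 ± 0.11 (SD, n = 3) or 1.71-fold, and replicate 2 was the lowest library for both genes (exact sign-flip p = 0.25, adjusted 0.375 over 6 ratios). Hif3a, which encodes another alpha subunit, had 0 counts in all 3, which puts Hif1a at least 1096-fold higher per exonic kb, with Hif3a held at 3 counts over the group. Of the exonic bases of Hif1a, 8.11% overlap other annotated genes, and 5.74% of the 50-base words of its transcripts also occur in another gene.

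Of the partners and regulators of HIF on a list of 17 genes, 15 had a count. Elob, Eloc and Rbx1, subunits of the VHL ubiquitin ligase, led it with means of 1145 ± 426, 184 ± 75.8 and 190.0 ± 60.1 TPM (SD, n = 3). Vhl itself was at 11.4, 3.74 and 5.68 TPM. Arnt, the partner of HIF-1α, was at 0.0441, 3.17 and 1.49 TPM, and replicate 1 held only 3 of its counts. Egln1, the main prolyl hydroxylase that marks HIF-1α for degradation, was at 11.6, 7.99 and 38.2 TPM, with replicate 3 the highest.

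Among glucose transporters, Slc2a1 (GLUT1) was at 2.15, 9.82 and 15.6 TPM, and Slc2a3 (GLUT3), a carrier of high affinity, at 2.47, 0.137 and 6.72 TPM. The order of the pair was not the same in every library: Slc2a3 was marginally higher in replicate 1 and Slc2a1 higher in the other 2. The log2 ratios of Slc2a1 to Slc2a3 were -0.20, 6.17 and 1.21, and the value of replicate 2 rests on 9 counts of Slc2a3 (mean 2.39 ± 3.34, SD, n = 3; exact sign-flip p = 0.5, adjusted 0.5). Slc2a4, the insulin-responsive carrier, had 0 counts, and Slc2a2, the carrier of liver and beta cells, had 1 count in all.

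Hexokinase was represented by Hk2 and Hk1. Hk2, the inducible isoform, was at 3.06, 7.39 and 4.69 TPM, and Hk1, the isoform of most resting tissues, at 0.704, 3.61 and 3.81 TPM. Hk2 was higher in each library, but the gap ranged widely: the log2 ratio of Hk1 to Hk2 was -2.12, -1.03 and -0.30, with a mean of -1.15 ± 0.91 (SD, n = 3; exact sign-flip p = 0.25, adjusted 0.375). Hk3 and Hkdc1 had 0 to 2 counts in any library.

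Pfkp, the platelet-type phosphofructokinase, was at 1.63, 4.63 and 9.96 TPM. Pfkl, the liver-type isoform, was at 0.759, 0 and 19.9 TPM, and Pfkm, the muscle-type isoform, at 0.317, 1.51 and 16.9 TPM. Pfkp was thus the highest of the 3 in replicates 1 and 2 and the lowest in replicate 3. The log2 ratio of Pfkp to Pfkm was 2.36, 1.61 and -0.76 (mean 1.07 ± 1.63, SD, n = 3; exact sign-flip p = 0.5, adjusted 0.5), and its mean without replicate 3 was 1.98. No order of the phosphofructokinases held across the 3 libraries.

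Pkm was at 9.80, 8.36 and 101.7 TPM, from 416, 380 and 3885 counts, and the mean of 40.0 TPM is set by replicate 3. Pklr, the isoform of liver and red cells, had 0 counts, which puts Pkm at least 1010-fold higher over the group. The tables count whole genes, so the splice forms PKM1 and PKM2 cannot be told apart. Of the 50-base words of Pkm transcripts, 25.8% occur in 8 other genes, and a count of Pkm depends on how such reads were assigned.

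Ldha (ENSMUSG00000063229, chr7:46841475-46855627, plus strand) was at 281.4, 303.7 and 1017 TPM, from 7908, 9141 and 25716 counts, and by its mean it ranked 346th among all genes. Ldhb, which encodes the heart-type subunit, was at 164.0, 78.2 and 127.2 TPM and was not raised in replicate 3. Ldha was higher in each library, with log2 ratios to Ldhb of 0.78, 1.96 and 3.00 (mean 1.91 ± 1.11, SD, n = 3, or 3.76-fold; exact sign-flip p = 0.25, adjusted 0.375). In replicates 1 and 2 alone the mean ratio was 2.58-fold. Ldhc, the testis isoform, had 0 counts. Fragments of Ldha sequence are frequent in other annotated genes, since 9.26% of its 50-base words occur in 328 of them.

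Pdk1 was at 2.85, 4.59 and 3.32 TPM, the most even of the 10 genes over the libraries (3.59 ± 0.905 TPM, SD, n = 3). Pdk3 was at 15.7, 4.98 and 35.2 TPM and was higher in each library, while Pdk2 was at 0, 4.00 and 1.16 TPM and Pdk4 had 0 counts. The log2 ratio of Pdk1 to Pdk3 was -2.47, -0.12 and -3.41 (mean -1.997 ± 1.70, SD, n = 3; exact sign-flip p = 0.25, adjusted 0.375), so that in replicate 2 the pair was nearly equal. Pdha1 and Pdhb, the E1 subunits that these kinases act on, were at 56.8 ± 30.7 and 95.6 ± 55.1 TPM (SD, n = 3).

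Slc16a3 (MCT4), the lactate exporter of glycolytic cells, was at 0, 1.34 and 2.07 TPM, from 0, 65 and 84 counts. A count of 0 in replicate 1 allows up to 3 counts there. Slc16a1 (MCT1) was at 3.17, 0 and 0.0592 TPM and Slc16a7 (MCT2) at 0.995, 0 and 0 TPM. Among Slc16a1, Slc16a3, Slc16a7 and Slc16a8, the highest by TPM was Slc16a1 in replicate 1 and Slc16a3 in the other 2. In replicate 1, Slc16a1 had 119 counts and Slc16a7 100. With levels of 0 to 3.17 TPM, no order of these genes held across the 3 libraries. Bsg, the chaperone that brings both MCT1 and MCT4 to the membrane, was at 306.9, 292.2 and 717.4 TPM.

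**Figure D1:**
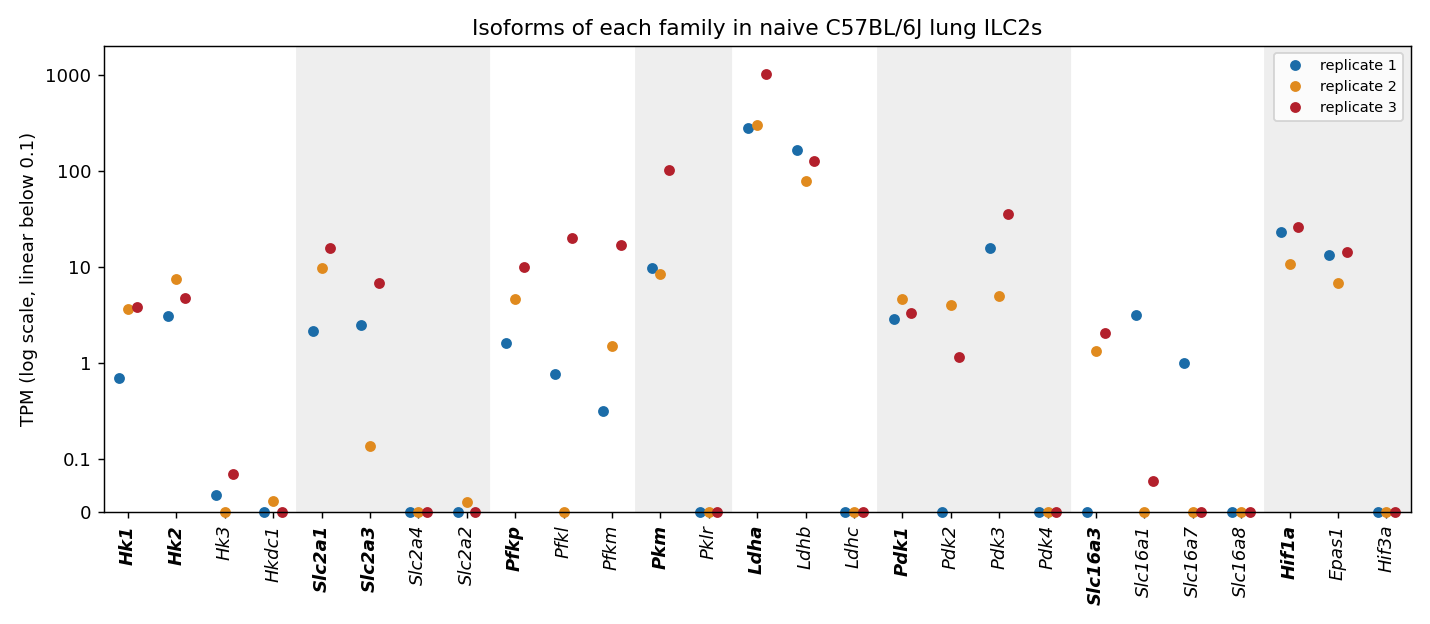
Level in TPM (log scale, linear below 0.1) of genes of 8 families in the 3 naïve C57BL/6J libraries, 1 point per library, with Hif1a and the 9 others in bold and shading to separate families. Ldha lies highest at 281.4 to 1017 TPM, and the red points of replicate 3 lie far above the others for Pfkl, Pfkm and Pkm.

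Glycolytic genes differed between replicate 3 and the other 2 libraries more than ILC2 markers did. Of the 10 genes, 8 were highest in replicate 3, and their median ratio of replicate 3 to the mean of replicates 1 and 2 was 2.84, the exceptions being Hk2 and Pdk1. Among 29 glycolytic enzymes 18 were highest in replicate 3, with a median ratio of 3.48 over the 23 that had one. Among 14 ILC2 markers 8 were highest, with a median of 1.19 over 13. Over the 9612 genes with at least 10 counts in each library the median ratio was 1.41, and 56.0% were highest in replicate 3. Pkm was 11.2 times, Aldoa (aldolase A) 4.59 times, Eno1 (enolase 1) 5.08 times and Pfkl 52.4 times the mean of the other libraries in replicate 3, whereas Pgk1 (phosphoglycerate kinase 1) was 0.885 times and Ldhb 1.05 times that mean. The Sftpc and Lyz2 counts of the same library are given above, and their part in these levels was not tested. In bulk RNA a change in the number of cells of a type and a change in RNA per cell cannot be told apart.

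Gapdh, usually among the most abundant glycolytic messages, had only 64, 5 and 78 counts (1.82, 0.133 and 2.47 TPM). Of its 50-base words, 25.1% occur in 223 other annotated genes, and 53.9% of those of Pgk1 occur in 5. A count of either gene depends on how such reads were assigned, and the part of this in the low Gapdh counts was not tested. Of the 29 glycolytic enzymes, 5 had 0 counts in C57BL/6J, among them Pgam2 and Pklr.

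**Figure D2:**
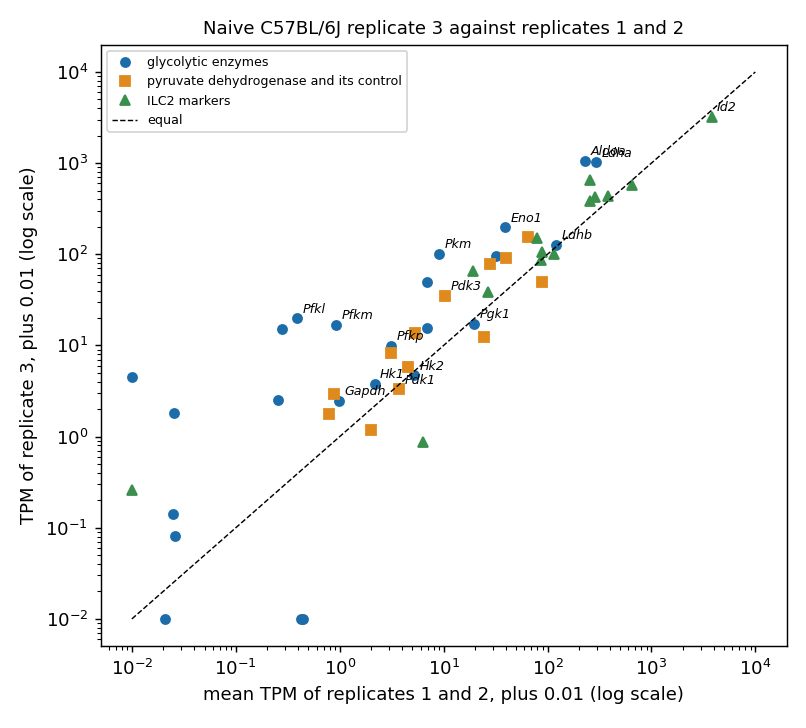
TPM of replicate 3 against the mean TPM of replicates 1 and 2 in naïve C57BL/6J (both plus 0.01, log scales), 1 point per gene with a count; circles are glycolytic enzymes, squares pyruvate dehydrogenase and its control, triangles ILC2 markers, and the dashed line marks equal values. Most circles lie above the line, with Pkm at 9.08 and 101.7 TPM, while Hk2, Pdk1, Pgk1 and Ldhb lie close to it.

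Before the CC030 groups were compared, the counts under each gene's name were checked against C57BL/6J, because the CC030 reads had been aligned to an mm9 pseudogenome and converted to mm10 coordinates. For each of the 10 genes, the C57BL/6J and CC030 counts per exonic kb of the other expressed genes (at least 1 CPM, a count scaled by library total, in C57BL/6J) within 4 Mb to each side were correlated across genes, and the mean Spearman rho over libraries was taken. Genes are not independent replicates, so no p is given. Over all 13478 expressed genes, rho was 0.0019 ± 0.0081 (SD, n = 3) in naïve CC030 and -0.059 ± 0.011 (SD, n = 5) in vehicle day 6. Around 9 of the 10 genes it lay between -0.16 and 0.10 in naïve CC030 and between -0.24 and 0.022 in vehicle day 6.

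Pfkp, near the start of chromosome 13, was the exception in the day 6 cultures. Across the 20 expressed genes around it, rho was 0.069 ± 0.221 (SD, n = 3) in naïve CC030, 0.15 ± 0.22 in vehicle day 2, 0.51 ± 0.025 in vehicle day 6 and 0.45 ± 0.055 in AR420626 day 6 (SD, n = 5 each). Looked at in bins of 4 Mb in vehicle day 6, a division made after the values had been seen, rho was 0.60 in the first bin of the chromosome with 5 genes and 0.71 ± 0.029 in the second with 8 genes, which holds Pfkp. In the third bin, with 8 genes, it was 0.17 ± 0.099, and in the fourth, with 19 genes, -0.15 ± 0.096. Chromosome 16, which holds none of the 10 genes, was the only whole chromosome with a high value in vehicle day 6, at 0.67 ± 0.018 over 452 genes.

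The levels were also set against 20984 genes that had 0 counts in all 3 C57BL/6J libraries. In naïve CC030 the 10 genes lay between the 24.7th and the 90.9th percentile of these genes in counts per exonic kb, with Ldha at the 31.9th and Pkm at the 24.7th. In vehicle day 6, Pfkp lay at the 98.1st percentile and the other 9 between the 23.9th and the 82.5th, and in AR420626 day 6 Pfkp lay at the 99.5th and the others between the 32.8th and the 76.7th. The 14 ILC2 markers had a median percentile of 52.1 in naïve CC030 and 66.7 in vehicle day 6. Pfkp lay at the 97.5th percentile in vehicle day 2, where mouse 5 holds most of its counts, and at the 65.4th in AR420626 day 2. The CC030 counts of all 10 genes lay within the range of genes with 0 counts in C57BL/6J. Pfkp lay near the top of that range at day 6, but at the 72.2nd percentile in naïve CC030. A difference in CC030 is therefore given as one of the named row and was not shown to be one of the gene, Pfkp included.

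**Figure D3:**
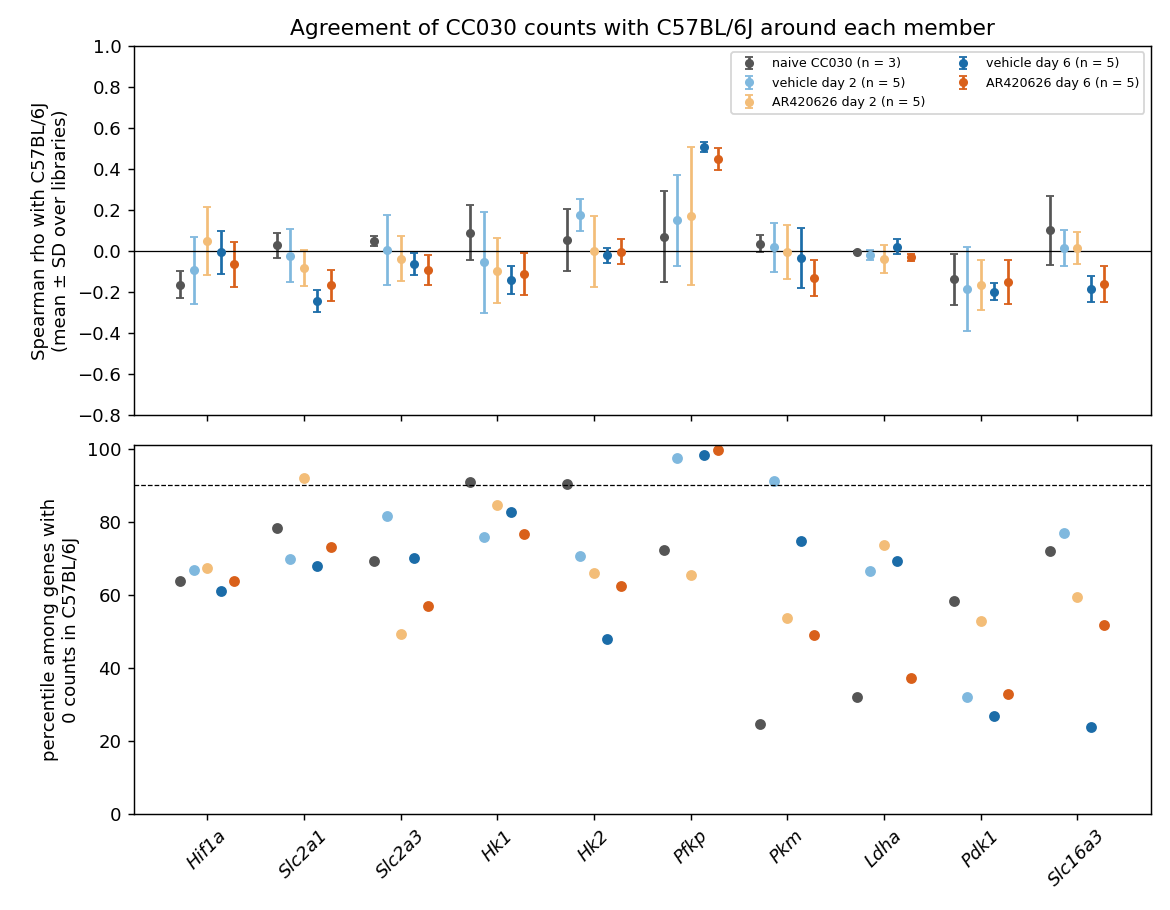
Upper panel, Spearman rho between C57BL/6J and CC030 levels across expressed genes within 4 Mb of each gene (mean ± SD over the 3 or 5 libraries of a group). Lower panel, percentile of each gene's CC030 counts per exonic kb among genes with 0 counts in C57BL/6J, with a dashed line at 90; Pfkp at day 6 stands at a rho of 0.51 and 0.45 and at the 98.1st and 99.5th percentiles.

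Between the naïve strains, the rows of Hif1a, Pkm and Ldha were lower in CC030 and that of Hk1 was higher. Of all 35551 genes tested by edgeR's quasi-likelihood test, 64.1% were called higher in CC030 and 12.2% lower at an adjusted p of 0.05, and the median log2 difference was 7.03, so that each of the 10 genes lies below the shift of the table as a whole. Of the 10 genes, 1 was called higher and 3 lower, with a median log2 difference of 0.42. Ldha had 19, 15 and 22 counts in CC030, against 7908, 9141 and 25716 in C57BL/6J (log2 difference -7.35, SE 0.57, adjusted p = 0.000446). Pkm had 21, 22 and 24 counts (log2 difference -3.80, SE 0.90, adjusted p = 0.00514). Hif1a had 42, 85 and 61 counts (log2 difference -1.83, SE 0.46, adjusted p = 0.00668). In all 3 the groups did not overlap in CPM, but neither did they for Hk1, nor for Slc2a3 and Slc16a3, which were not called. Non-overlap therefore does not set these 3 genes apart, and its share over all genes tested is not given here.

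Hk1 had 97, 219 and 162 counts in CC030, or 73.1 ± 25.3 CPM against 20.1 ± 13.2 CPM in C57BL/6J (SD, n = 3 each; log2 difference 1.86, SE 0.66, adjusted p = 0.0327), and it lost its call when any of 4 of the 6 libraries was left out (C57BL/6J replicate 1 or 3, CC030 replicate 2 or 3), at adjusted p up to 0.130. Hif1a lost its call with only genes of at least 10 counts in every library (log2 difference -1.002, adjusted p = 0.0931). The remaining 6 genes had 40 to 210 counts in naïve CC030 and log2 differences of -0.25 for Slc2a1 to 2.62 for Slc16a3, none past the threshold. Without C57BL/6J replicate 3 the log2 differences of Ldha, Pkm and Hif1a were -7.27, -2.59 and -2.22. DESeq2's size factors raised the values of the 10 genes by 0.64 on the log2 scale (median).

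Of 29 glycolytic enzymes, 10 were called higher and 7 lower, with a median log2 difference of 1.63 against 7.03 over all genes tested. The enzymes called higher included Pklr, Ldhc and Pgam2, all with 0 counts in C57BL/6J, at 5.43 to 33.5 CPM in CC030. Those called lower were Aldoa, Eno1, Ldha, Ldhb, Pgk1, Pkm and Tpi1 (triosephosphate isomerase). Of 14 genes of pyruvate dehydrogenase and its control 6 were lower and 1 higher, of 21 HIF targets outside glycolysis 8 were lower and 5 higher, and of 17 HIF regulators 6 were lower and 4 higher. The strain, the alignment and the depth changed together between these groups, and their parts cannot be told apart.

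In the cultured cells the question was whether AR420626 changed these genes. At day 6 it did so for the Pfkp row, the only 1 of the 10 with more than 50 counts on average over the 20 cultured libraries. Vehicle libraries of mice 1 to 5 held 511, 441, 292, 878 and 406 Pfkp counts, and AR420626 libraries 1813, 2073, 1285, 1560 and 866. In TMM-scaled CPM these were 473.6, 390.3, 326.8, 861.1 and 421.5 with vehicle, and 2228, 1478, 1744, 1987 and 996.8 with AR420626. The groups did not overlap, and the row was higher in each of the 5 mice, by 1.21 to 2.41 on the log2(CPM + 1) scale. The shares of all genes without overlap, or higher in all 5 mice, are not given here. With mouse as a block, edgeR gave a log2 difference of 2.10 (SE 0.24, 4.28-fold, adjusted p = 3.67e-07), against 3.3% of 9421 genes called higher and 8.14% called lower. An exact sign-flip test over the 5 mice gave p = 0.0625, the smallest possible. The log2 difference stayed between 1.86 and 2.32 and the call held under each of the 11 alternatives.

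Only 3 others of the 10 genes passed the filter on low counts at day 6. Hif1a had 8 to 14 counts with vehicle and 7 to 19 with AR420626 (log2 difference 0.62, SE 0.57, adjusted p = 0.506). Hk1 and Slc2a3 had log2 differences of 0.22 (SE 0.39, adjusted p = 0.751) and 0.28 (SE 0.50, adjusted p = 0.748). The other 6, Ldha, Pkm, Hk2, Slc2a1, Pdk1 and Slc16a3, had 0 to 30 counts in any day 6 library and did not pass the filter for edgeR. Of these, Slc16a3 had 2, 7, 1, 0 and 5 counts with vehicle and 2, 10, 14, 2 and 17 with AR420626 in mice 1 to 5. Its paired differences were 0.28, 0.18, 3.24, 1.83 and 1.73 on the log2(CPM + 1) scale, higher in 5 of 5 mice, with a mean of 1.45 ± 1.27 (SD, n = 5; exact sign-flip p = 0.0625, the smallest possible). Among the 10 genes examined in this way, only Slc16a3 and Pfkp were higher in all 5 mice at day 6. No share over all genes is given beside this, and the Slc16a3 values rest on few counts. In mouse 1 the Slc16a3 count was 2 under either condition, so its difference came from library scaling alone. With AR420626 at day 6 the Slc16a3 row lay at the 51.7th percentile of genes with 0 counts in C57BL/6J.

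Pitrm1, which encodes a mitochondrial peptidase and lies tail to tail with Pfkp (chr13:6548149-6580515, plus strand, against chr13:6579768-6648777, minus strand), moved with it. Pitrm1 rose from 305.4 ± 90.2 CPM with vehicle to 1210 ± 322 CPM with AR420626 at day 6 (SD, n = 5 each; log2 difference 2.28, SE 0.25, adjusted p = 1.35e-07). Their exons overlap over 5.58% of the exonic bases of Pfkp and 15.6% of those of Pitrm1. Over the 20 cultured libraries, in a comparison made for Pfkp after its values had been seen, Pitrm1 had the pattern most like that of Pfkp among 3240 genes with at least 50 counts on average (Pearson r = 0.99 of log2(CPM + 1)), followed by Runx1 on chromosome 16 (0.98) and Fasn on chromosome 11 (0.97), and the libraries share day, mouse and depth. All 16 other expressed genes listed around the pair, from Gm9616 to Zmynd11, had a lower mean with AR420626 than with vehicle at day 6. The median log2 difference over all 9421 genes tested was 0.10, and the share of them with a lower mean is not given here. Of 3 picked after their values had been seen, Gdi2 had 1812 ± 1154 CPM with vehicle and 640.1 ± 106.0 CPM with AR420626 (SD, n = 5 each). Akr1c13 had 878.6 ± 751.4 and 184.0 ± 66.1 CPM, and Klf6 638.8 ± 467.4 and 139.2 ± 24.8 CPM.

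**Figure D4:**
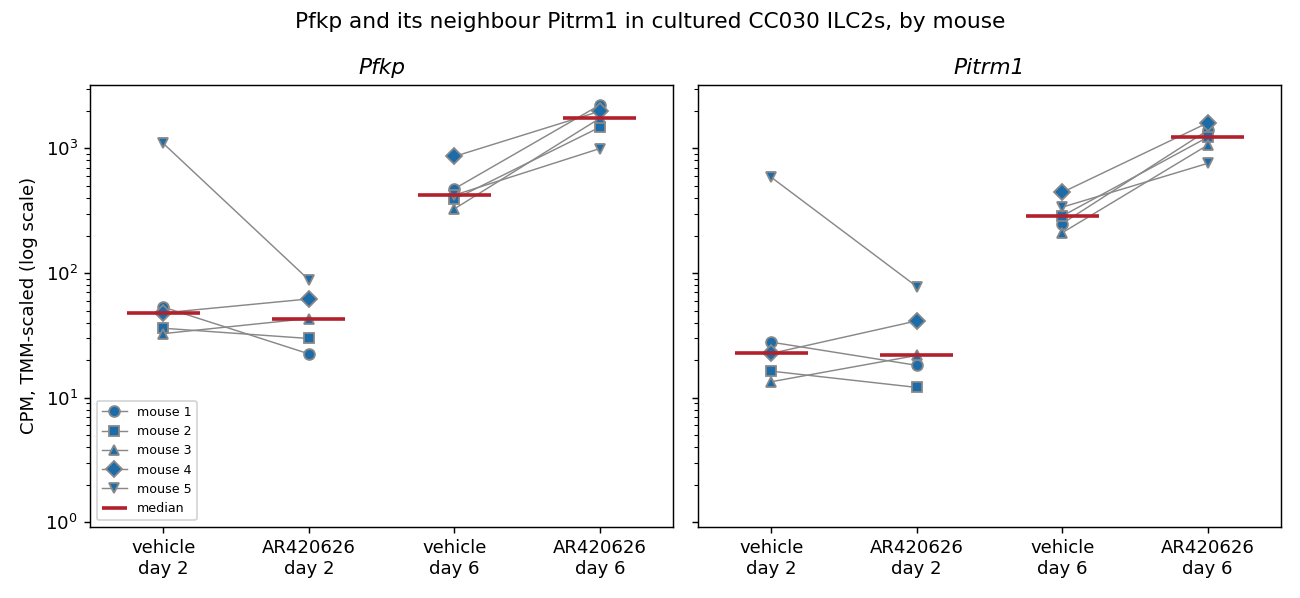
TMM-scaled CPM (log scale) of Pfkp and of its neighbour Pitrm1 in the 20 cultured CC030 libraries; each symbol is a mouse, grey lines join vehicle and AR420626 of the same mouse and day, and red bars are medians. At day 6 all 5 lines of Pfkp rise, from 326.8 to 861.1 CPM up to 996.8 to 2228 CPM, and at day 2 mouse 5 with vehicle stands alone at 1097 CPM.

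At day 2, none of the 10 genes was called. Of 20865 genes tested 0 (0%) were called by edgeR, 403 had an unadjusted p under 0.05, none of them among the 10, and DESeq2 called 15. Pfkp had 109, 95, 73, 91 and 1147 counts with vehicle and 47, 79, 91, 27 and 102 with AR420626 (log2 difference -0.83, SE 0.86). The vehicle library of mouse 5 stood far above the rest, and it also held 5320028 counts in genes against 1139210 to 2563239 in the other 4. The AR420626 library of mouse 4 held only 227445. Hif1a had 17 to 49 counts with vehicle and 1 to 59 with AR420626 (log2 difference -0.48, SE 0.65), and Ldha 6 to 28 and 2 to 37 (log2 difference -0.11, SE 0.59). The largest difference was that of Pkm (-1.11, SE 0.52), lower in 4 of 5 mice (exact sign-flip p = 0.125), followed by Pfkp and by Slc2a3 (-0.78, SE 0.51), lower in 4 of 5. The largest positive difference was that of Slc2a1 (0.67, SE 0.49), higher in 4 of 5 mice.

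Whether the AR420626 effect differed between the days was tested as an interaction. Of 23141 genes 0.0519% were called and none of the 10. Pfkp had the largest difference of effects among them (day 6 minus day 2, 3.23 on the log2 scale, SE 1.27, adjusted p = 0.839), and with mouse 5 left out it was 2.02 (adjusted p = 0.659). The rise of Pfkp at day 6 was thus not shown to be absent at day 2.

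From day 2 to day 6 in vehicle, 9 of the 10 genes were tested and none was called, against 13.6% of 15819 genes called higher and 3.73% called lower. Pfkp increased in 4 of 5 mice, from 32.7 to 53.3 CPM at day 2 to 326.8 to 861.1 CPM at day 6, and decreased in mouse 5, whose day 2 library already stood at 1097 CPM (log2 difference 2.81, SE 1.08, adjusted p = 0.0782). Without mouse 5 the log2 difference was 3.67 (adjusted p = 1.28e-05), and without mice 4 and 5, an alternative added after the data had been seen, 3.44 (adjusted p = 1.18e-05). The listed neighbours of Pfkp also had higher vehicle means at day 6 than at day 2, except Akr1c14 (9.94 and 5.72 CPM at days 2 and 6). Gdi2 had means of 345.6 ± 641.6 and 1812 ± 1154 CPM (SD, n = 5 each). Akr1c13 had 16.4 ± 27.5 and 878.6 ± 751.4 CPM, and Klf6 72.4 ± 117.5 and 638.8 ± 467.4 CPM. The rise was thus not particular to Pfkp in this region. The other 8 of the 10 genes that were tested had log2 differences from -1.56 for Hk2 to -0.21 for Hk1. The median of the 9 was -0.78, beside -0.33 over all genes tested and -0.33 over the tested genes with 0 counts in C57BL/6J. Hif1a and Hk2 were each lower at day 6 in all 5 mice, and the share of all genes lower in all 5 is not given here. Hif1a stood at 18.3 ± 4.44 and 10.7 ± 2.69 CPM at days 2 and 6, without passing the test (log2 difference -0.78, SE 0.49, adjusted p = 0.276). Hk2 stood at 19.0 ± 5.55 and 7.95 ± 6.68 CPM.

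Across all groups, Pfkp took 1.80% to 4.68% of the counts of the 10 genes in naïve C57BL/6J, 16.6% to 27.1% in naïve CC030, 16.6% to 83.7% in vehicle day 2, 12.98% to 41.5% in AR420626 day 2, 76.4% to 91.1% in vehicle day 6 and 90.3% to 96.4% in AR420626 day 6. The 83.7% in vehicle day 2 was that of mouse 5. Naïve and cultured CC030 libraries were made and sorted separately, and no test was made between them.

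Other genes of the pathway lists were described in the same way. At day 6 with AR420626, 3.3% of all 9421 genes tested were called higher and 8.14% lower. Of 11 tested HIF regulators 4 were lower and 0 higher, with a median log2 difference of -0.38 against 0.10 over all genes tested. They were Egln1 (2390 ± 1710 to 689.5 ± 181.5 CPM, SD, n = 5; log2 difference -1.31, SE 0.26, adjusted p = 0.000683), Hif3a (-1.26, SE 0.24), Cul2, the scaffold of the VHL ligase (-0.84, SE 0.26), and Arnt (-0.71, SE 0.23). Of 15 glycolytic enzymes tested, Pfkp and Eno2 (neuronal enolase; log2 difference 1.28, SE 0.25) were higher and none lower. Of 8 HIF targets outside glycolysis, Ndrg1 (1.39, SE 0.23) and Fam162a (1.23, SE 0.25) were higher and Egln1 lower, and of 7 genes of the MYC and mTORC1 axis Rps6kb1, which encodes S6 kinase 1, was lower (-0.94, SE 0.27). Hif3a had 0 counts in C57BL/6J and stood at 988.3 ± 414.1 CPM in vehicle day 6.

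The position check was applied to all 105 genes of the pathway lists, with a minimum rho of 0.5 over at least 15 genes in vehicle day 6, limits set after the values had been seen. It was met around 5 of them: Pfkp, Fam162a and Crebbp, both on chromosome 16, Cul2 and Eloc. Among these 5, AR420626 at day 6 was accompanied by higher Pfkp and Fam162a and lower Cul2. Around Egln1, Hif3a, Eno2, Ndrg1 and Arnt, rho was between -0.16 and -0.0087. From day 2 to day 6 in vehicle, Fam162a (log2 difference 5.46, SE 1.26, adjusted p = 0.00686), Eloc (5.52, SE 0.85, adjusted p = 0.000497) and Cul2 (3.31, SE 0.80, adjusted p = 0.00897) were higher in all 5 mice. These genes had been picked by the rho of vehicle day 6 itself. Their rise to day 6 is thus not independent of that choice, and no conclusion is drawn from it. Of 22 glycolytic enzymes tested from day 2 to day 6 in vehicle, 5 were higher (among them Pgk1, Eno2, Aldoc and Hkdc1) and 1 lower (Pfkfb3), with a median log2 difference of -0.40. Over all 15819 genes tested, 13.6% were called higher and 3.73% lower, with a median of -0.33.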

How the data were processed

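Bulk RNA-seq libraries of sorted mouse lung ILC2s were used as deposited. Per the labels and the study's methods, the authors trimmed reads with fastp, aligned them with STAR and counted them per gene with HTSeq, which gave the deposited raw counts. C57BL/6J reads were aligned to mm10, and CC030 reads to an mm9 pseudogenome and then converted to mm10 with lapels. The annotation and the strand setting of the counting are not given in the sources used here.

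Groups came from the labels. Genes were named and measured with GENCODE vM21 (GRCm38). TPM used exonic length. Differences were tested with edgeR (4.0.16) by its quasi-likelihood test after filterByExpr (minimum count 10, total 15) and TMM scaling, in R 4.3.3, with Benjamini-Hochberg adjustment at 0.05, and the scripts were tested on simulated data. In the cultured comparisons mouse was a block, since the labels give the same individual mouse for a number. Other tools were DESeq2 (1.42.0), scipy 1.17.1 and pandas 2.3.3. Per the methods, each naïve library came from a separate mouse, sorted on its own.

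Named genes were the 10 members in every group, their paralogs in naïve C57BL/6J, and, per comparison and list, the called genes of lowest p, 4 at most. Genes of like pattern were to be named for Hif1a, Ldha and Hk2, none of which reached 50 mean counts in culture. Further names, among them Pitrm1 and other listed genes, were chosen after their values were seen. The members and lists were chosen with earlier results of these data known. Alternatives were another tool, scaling or filter, the replicate block, and each replicate left out. The floor behind a lower bound is 3 counts over the group and covers counting error only. Some listed genes are not reported here by name.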

Additional observations from a re-analysis of the deposited data

Results flagged for a closer look

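In 40 groups of 5 libraries, 4 held a library far from the others by Dixon's test, where chance gives about 1 in 20. In vehicle day 2, mouse 5 stood at 1097 CPM for Pfkp against 32.7 to 53.3 CPM in the other 4 mice, at 61.2 CPM for Slc2a3 against 22.1 to 27.7 CPM, and at 85.1 CPM for Pkm against 13.4 to 25.1 CPM. This library also had the highest total, 5320028 counts in genes. In vehicle day 6, mouse 4 stood at 861.1 CPM for Pfkp against 326.8 to 473.6 CPM, and its total of 3420893 counts was the highest of that group. The part of depth in these values was not tested.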

How the results depend on the processing

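No difference called for the 10 genes changed sign under the alternatives run. Of the log2 differences that were not called, 14 changed sign in 25 alternative values, none past the threshold. Between strains, Slc2a1 was 0.38 by DESeq2 and with its size factors, 0.58 with at least 10 counts in every library, and -0.91 to 0.013 with 1 library left out, where Pfkp was -0.17 to 0.53 and Pdk1 -0.21 to 0.63. With AR420626 at day 2 and 1 mouse left out, Hif1a was -0.90 to 0.063, Hk2 -0.55 to 0.053, Ldha -0.54 to 0.18, Pdk1 -0.050 to 1.099 and Slc16a3 -0.76 to 0.11. Without mice 4 and 5, Hif1a was 0.42, Hk2 0.070 and Ldha 0.45, and Ldha was 0.024 with no replicate block. With 1 mouse left out, Hk1 was -0.0071 to 0.40 with AR420626 at day 6 and -0.63 to 0.14 between days in vehicle, where it was 0.084 without mice 4 and 5. For the difference of effects, Slc2a1 was -0.51 to 0.23 and Pdk1 -0.45 to 1.12 with 1 mouse left out, Hk1 was 0.14 with at least 10 counts in every library, and without mice 4 and 5 Hif1a was -0.070 and Slc2a1 0.099. Of the isoform ratios, Pfkp to Pfkm moved to a log2 ratio of 3.07 on raw counts without length and Hif1a to Epas1 to 1.07 with the longest transcript as length. The rho around Pfkp in vehicle day 6 was 0.26 with 8 Mb to each side (with 2 Mb too few genes were left for a value) and 0.68 with genes of at least 10 CPM, where the median of the other 9 genes was -0.17. Between strains, 3573 genes were called with at least 10 counts in every library (1635 higher, 1938 lower), and Hk2 (log2 difference 1.43) and Slc16a3 (3.28) were called by DESeq2. With AR420626 at day 2, DESeq2 called 15 genes and edgeR without a filter 15. At day 6 the count was 604 to 1221 with 1 mouse left out and 361 without mice 4 and 5, a choice made after seeing the data. From day 2 to day 6 in vehicle it was 994 to 5376 with 1 mouse left out, the highest without mouse 5, and 4337 without mice 4 and 5. Of the 10 genes, 2 were then called by DESeq2, 1 without a filter, 0 to 2 with 1 mouse left out and 2 without mice 4 and 5. For the difference of effects between days, DESeq2 called 75 genes, edgeR 20 without a filter, 6 with at least 10 counts in every library, 0 to 33 with 1 mouse left out and 59 without mice 4 and 5. The cause of these shifts was not tested.

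With a replicate block, the strain comparison called 26602 genes and 4 of the 10 genes. The strain replicates share only a number, and same-numbered libraries had correlations of -0.0106 to 0.00177. In the cultured cells, where mouse was the block, libraries of the same mouse had correlations of -0.1295 to 0.347 between treatments at day 2. They were -0.1006 to 0.303 at day 6 and -0.3687 to 0.262 between days in vehicle. The best correlation was with the same mouse for 2, 1 and 1 of 5 libraries. Without the replicate block in the cultured cells, 0 genes were called at day 2, 995 at day 6, 1956 between days in vehicle and 2 for the difference of effects. Low counts in genes limit the CC030 values: at day 6, 6 of the 10 genes had too few counts for the edgeR fit. In vehicle day 6, 81.3% to 84.4% of counted reads matched no annotated gene and 5.31% to 7.16% were in genes. In AR420626 day 6 these shares were 83.7% to 85.3% and 4.76% to 5.64%. Genes with 0 counts in C57BL/6J held 29.9% to 30.8% of the counts in genes in naïve CC030. They held 17.0% to 22.0% in vehicle day 6 and 22.2% to 23.1% in AR420626 day 6. The part of sequencing depth was not tested.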

Other observations

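Some paralogs with few or no counts in C57BL/6J were abundant under their names in cultured CC030 libraries. Hif3a, with 0 counts in C57BL/6J, stood at 623 to 1627 CPM in vehicle day 6 and at 137 to 448 CPM in AR420626 day 6. Slc2a2, with 1 count in C57BL/6J, stood at 164 to 516 CPM in vehicle day 6. Around Hif3a, rho between the strains was -0.02 in vehicle day 6.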
